A study of Homo sapiens with 9 samples.

Results

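The 36 genes described here belong to the classical interferon-stimulated set: the ISG15 conjugation genes, the IFIT, OAS, MX and IFITM families, RSAD2, several IFI genes, and others such as PARP9, SAMD9 and TRIM22. They were chosen by name, from a list of human symbols matched to the Ensembl gene identifiers of the deposited tables. All 36 matched 1 identifier among the 63241 genes of the tables, and all 36 were among the 14592 genes with enough counts to be tested. Poly(A)-selected RNA was sequenced from MEG-01, a human megakaryoblast line established from a patient with chronic myeloid leukaemia in blast crisis. The series asks whether arsenic disulfide promotes the formation of megakaryocytes through SRC, MEK and ERK. It holds 3 groups of 3 libraries: control cells, for which the labels name no agent, cells treated with As2S2 (arsenic disulfide), and cells treated with PMA. PMA is a phorbol ester; it switches on protein kinase C and is widely used to push MEG-01 cells towards the megakaryocyte fate. The labels give no dose, no duration and no vehicle, and all groups are the same leukaemic line, so the comparisons concern this line alone.

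Type I and type III interferons are secreted proteins that bind receptors coupled to the kinases JAK1 and TYK2. These phosphorylate transcription factors such as STAT2, which joins IRF9 and binds a DNA element, the interferon-stimulated response element, in the promoters of target genes. The targets include enzymes and binding proteins that act on viral RNA, GTPases that block viral particles, membrane proteins that hinder entry or release, and the ubiquitin-like protein ISG15. Many of these genes are also expressed at a low level without added interferon.

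The libraries held between 18.2 and 20.37 counts in units of 1e6. Within their groups, control replicate 2 and As2S2 replicate 1 differed most from the other libraries. For pairs of libraries of 1 group, the chi-square of the counts per gene was 12.2 to 15.4 for pairs that held either of them and 2.43 to 3.5 for the other pairs. Main counts are therefore also given without both. Of the megakaryoblast markers, 11 of 12 had enough counts to be tested, and GATA1, a transcription factor of this lineage, stood between 88.8 and 122 CPM (counts per 1e6 counts of a library, its total scaled by TMM) in all 9 libraries. GATA1 is 1 marker of this list. Others changed with either agent. Log2 fold changes over the 11 ran from -0.72 to 0.82 with As2S2 and from -1.05 to 4.17 with PMA. Nothing in the labels says whether replicates were separate cultures, so the spread that the p-values rest on may be only technical.

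In control cells most of these genes were expressed at a low level. Per transcript length, in the deposited TPM (transcripts per 1e6), the means over 3 control libraries ran from 0.17 for SAMD9L to 696 for IFITM1. The median over the 36 genes was 3.96 TPM, and 26 of the genes were under 10 TPM. The 3 highest in control were IFITM1 at 696 ± 19.4 TPM (SD, n = 3), IFITM2 at 447 ± 20.8 TPM and LY6E at 224 ± 33.6 TPM.

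Most of these genes were lower with As2S2 than in control and higher with PMA. With As2S2, 25 of the 36 genes were lower than in control and 2 were higher, whereas 19.6% of all tested genes were lower and 20.3% were higher. With PMA, 30 of the 36 were higher and 1 was lower, whereas 30.8% of all tested genes were higher and 31.1% were lower. In either direction the test called 39.9% of all tested genes with As2S2 and 61.9% with PMA. The test was edgeR's quasi-likelihood F-test with Benjamini-Hochberg adjustment over all tested genes at a threshold of 0.05. The median log2 fold change of the 36 genes was -0.65 with As2S2 and 0.86 with PMA, and the median over all tested genes was 0 in both comparisons. Counted by overlap alone, all 3 As2S2 libraries were below all 3 control libraries for 25 of the 36 genes and above them for 2, against 22.7% and 23.1% of all tested genes. The PMA libraries were all above the control libraries for 30 and all below for 1, against 33.8% and 33.7%. Without both control replicate 2 and As2S2 replicate 1, 26 of the 36 genes were lower and 3 higher with As2S2, against 24.8% and 25.4% of all genes tested then. PMA then gave 30 higher and 4 lower, against 34.4% and 33.3%. Single libraries decided the small counts: 4 genes were lower with PMA without control replicate 2 and 2 without PMA replicate 1, and 1 was higher with As2S2 without control replicate 3 or As2S2 replicate 2. The same 3 control libraries serve both comparisons. In bulk RNA of this kind, fewer cells expressing a gene and less of its RNA per cell cannot be told apart.

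The libraries of each group showed the same shift one by one. Relative to the control mean of each gene, with 0.5 CPM added to both, the median log2 ratio over the 36 genes was -0.53, -0.65 and -0.71 in As2S2 replicates 1, 2 and 3. It was 0.92, 0.81 and 0.79 in PMA replicates 1, 2 and 3, and between -0.07 and 0.01 in the control libraries. In the As2S2 libraries 31, 28 and 30 of the genes were below their control mean, and in each PMA library 32 were above it.

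**Figure D1:**
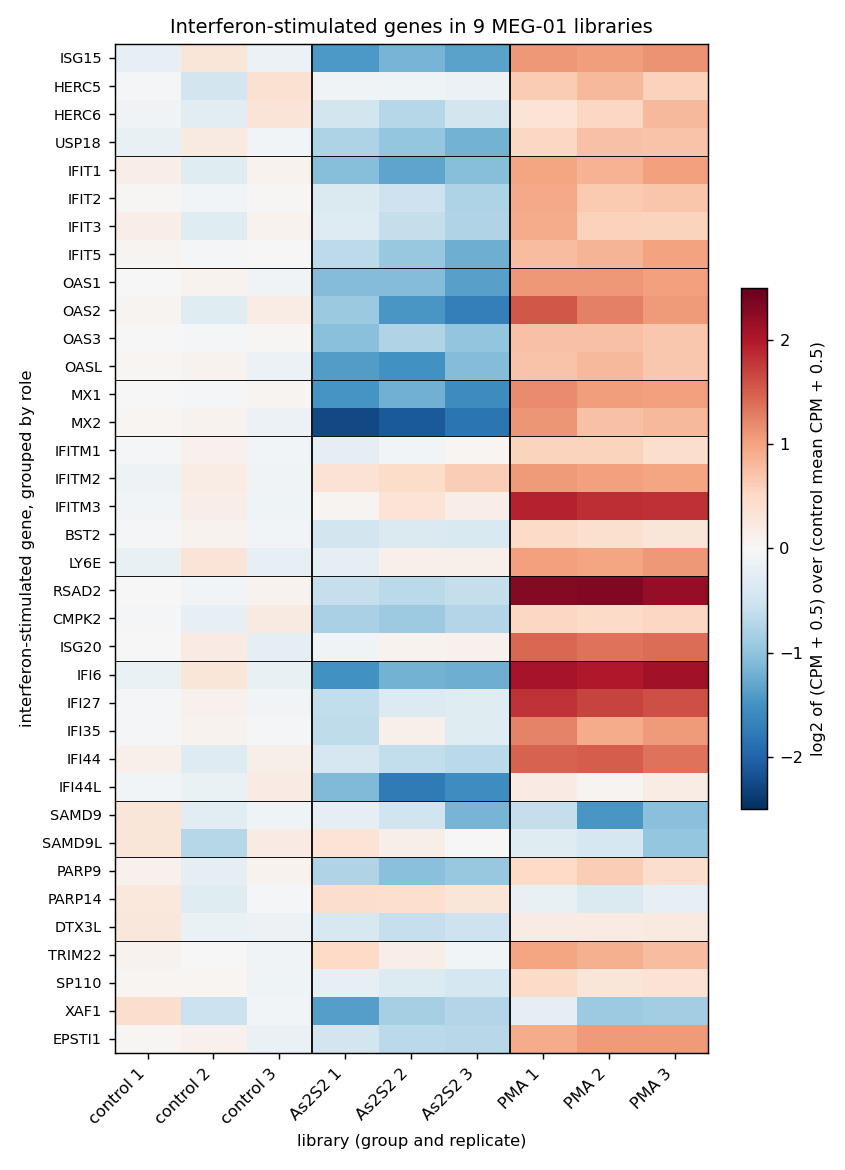
Heat map of the 36 genes (vertical, grouped by role) in the 9 libraries (horizontal); colour is the log2 ratio of CPM + 0.5 to the control mean CPM + 0.5, blue for lower and red for higher, and colours saturate beyond 2.5. Most genes are blue in the 3 As2S2 libraries and red in the 3 PMA libraries; the library medians are -0.53 to -0.71 and 0.79 to 0.92.

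The PMA count depends on how the libraries are scaled. The TMM factors, which multiply each library's total, were 0.892 to 0.922 in the PMA libraries and 1.04 to 1.11 in the control libraries. With library totals alone, a setting added after the data were seen, the median of all tested genes moved to -0.26 with PMA, and the median of the 36 genes to 0.60. Then 24 of the 36 were higher and 4 were lower, against 20.3% and 44.4% of all tested genes. Relative to the median of all genes the 36 genes stood 0.85 higher under this scaling, against 0.86 with TMM. With As2S2 the same scaling gave 25 genes lower and 1 higher, against 24.2% and 15.7% of all tested genes. In the deposited TPM, the median log2 ratio of PMA to control was 0.31 over the 36 genes and -0.44 over 14562 tested genes, and 26 of the 36 were above 0. Of the genes called higher with PMA, HERC6, IFIT3, BST2 and SP110 had TPM ratios below 0. The ratio was 0.02 for IFITM1, 0.03 for CMPK2, 0.07 for HERC5, 0.12 for OASL, 0.15 for MX2 and 0.17 for OAS3. All fold changes below are relative to TMM scaling.

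Most of the promoters on hand held the letters of the element that IRF9 and its partners bind. RefSeq promoter windows on GRCh38.p14, from 250 bases before to 50 bases after each start, were on hand for 28 of the 36 genes. They were searched on both strands for GAAANNGAAA, the core of the interferon-stimulated response element, with overlapping matches counted apart. At least 1 match lay in the windows of 21 of these 28 genes (75.0%), whereas 3.57% of all 35116 windows and 4.38% of the 27305 genes with a window held one. A match is a run of letters, not a measured binding site.

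The stretches below are shown because they hold the matches of genes whose values follow, among them genes that fell with As2S2 and rose with PMA (ISG15, IFI6, IFIT1, BST2, EPSTI1, RSAD2, PARP9) and genes that did not do both (IFITM3, ISG20, PARP14, SAMD9). Each is read 5′ to 3′ along the strand of its gene, and the capitals mark the matches, which read TTTCNNTTTC where the element lies on the other strand. For RSAD2 the stretch lies before the further downstream of its 2 RefSeq starts.
ISG15, chr1:1013377-1013406, plus strand: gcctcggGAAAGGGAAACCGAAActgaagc
IFI6, chr1:27672246-27672378, minus strand: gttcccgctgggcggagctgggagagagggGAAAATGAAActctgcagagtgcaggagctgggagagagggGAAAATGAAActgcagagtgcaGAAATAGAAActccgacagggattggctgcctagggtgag
IFIT1, chr10:89392504-89392532, plus strand: tagTTTCACTTTCcccTTTCGGTTTCcct
BST2, chr19:17405738-17405767, minus strand: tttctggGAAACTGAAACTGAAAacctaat
EPSTI1, chr13:42992252-42992321, minus strand: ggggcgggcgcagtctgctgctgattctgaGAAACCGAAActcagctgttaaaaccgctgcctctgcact
RSAD2, chr2:6877622-6877651, plus strand: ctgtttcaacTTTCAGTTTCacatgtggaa
PARP9, chr3:122564322-122564351, minus strand: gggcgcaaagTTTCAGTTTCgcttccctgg
IFITM3, chr11:320885-320913, minus strand: gGAAAAGGAAActgttgaGAAACCGAAAc
ISG20, chr15:88638937-88638966, plus strand: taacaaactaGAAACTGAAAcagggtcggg
PARP14, chr3:122680800-122680829, plus strand: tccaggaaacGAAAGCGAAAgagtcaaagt
SAMD9, chr7:93118076-93118145, minus strand: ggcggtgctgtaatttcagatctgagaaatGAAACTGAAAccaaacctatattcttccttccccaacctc

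ISG15 and BST2 each showed 2 matches that share bases, and the IFI6 stretch held 3 separate matches. The PARP9 match is the same DNA as the match of its divergent neighbour DTX3L, read from the other strand. By the GENCODE 29 annotation, the stretches of ISG15, IFI6, IFIT1, EPSTI1, RSAD2 and SAMD9 touched no exon. Stretches that reached an exon with 30 bases on each side of the matches were cut to at most 30 bases. Those of ISG15, IFIT1 and RSAD2 touched no exon only after this cut. Those of IFITM3, ISG20 and PARP14 lay in an annotated exon of the same gene, that of BST2 in an exon of the neighbouring transcript BISPR, and that of PARP9 in an exon of DTX3L. No match was found for CMPK2, HERC6, IFI35, OAS1, SAMD9L, SP110 and XAF1, which says only that these letters are not in those windows.

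The element was matched in 13 of the 17 genes with a window that were lower with As2S2 and higher with PMA, and in 8 of the 11 others, counts that were not tested against each other. TTCNNNGAA, the gamma-activated sequence of interferon gamma targets, was found in the windows of 9 of the 28 genes (32.1%), against 9.38% of all genes with a window. In EPSTI1, IFI27, IFITM1 and MX1 every such match shared bases with a match of GAAANNGAAA, as did a match in BST2. The counts of these elements are therefore not independent. TGANTCA, the element of AP-1 factors, which respond to PMA, was found for 4 of the 28 (14.3%), against 9.37% of all genes with a window.

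**Figure D2:**
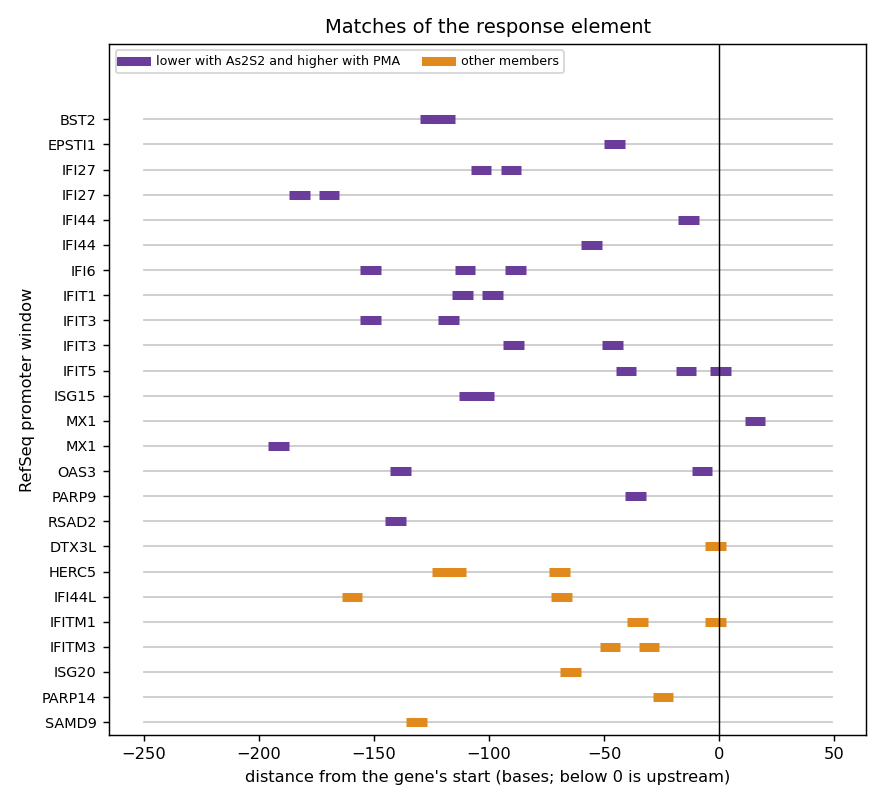
Matches of GAAANNGAAA on either strand (thick bars) in the RefSeq promoter windows that hold one (grey lines), by distance from the start in bases; purple marks genes that were lower with As2S2 and higher with PMA, orange the other genes. Matches of both colours lie mostly upstream of the start.

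ISG15 encodes a ubiquitin-like protein that is conjugated to other proteins, HERC5 is its ligase in human cells, and USP18 removes it and dampens receptor signalling. ISG15 stood at 37.2, 53.2 and 39.2 CPM in control replicates 1, 2 and 3, at 15.8, 19.0 and 16.8 CPM with As2S2, and at 91.6, 89.3 and 94.7 CPM with PMA. All As2S2 libraries were below and all PMA libraries above all control libraries. The log2 fold change was -1.32 ± 0.12 (SE) with As2S2 (adjusted p = 5.91e-07) and 1.09 ± 0.11 with PMA (adjusted p = 4.77e-07). USP18 showed the same order, with 6.61, 9.0 and 7.3 CPM in control, 4.28, 3.68 and 3.09 CPM with As2S2 and 11.2, 13.0 and 12.8 CPM with PMA. USP18 thus changed by -1.05 ± 0.16 (adjusted p = 9.86e-05) and 0.70 ± 0.15 (adjusted p = 0.000592).

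HERC6, a relative of HERC5, was the least firm of the genes called in opposite directions. It stood at 2.68, 2.28 and 3.74 CPM in control, 1.98, 1.56 and 1.99 CPM with As2S2 and 3.82, 4.33 and 5.43 CPM with PMA. The groups did not overlap, with log2 fold changes of -0.66 ± 0.23 (adjusted p = 0.0347) and 0.64 ± 0.21 (adjusted p = 0.0155). The As2S2 call was lost without control replicate 1 or 3, or without any 1 As2S2 replicate (values of -0.72 to -0.43, adjusted p = 0.0506 to 0.21). The PMA call was lost without control replicate 1 or 2 or PMA replicate 3 (0.49 to 0.58, adjusted p = 0.0538 to 0.0961) and with library totals (0.38, adjusted p = 0.15). In TPM the mean of HERC6 was 0.78 in control and 0.75 with PMA. HERC5 rose with PMA, by 0.72 ± 0.19 (adjusted p = 0.00329, but 0.45 and adjusted p = 0.0585 with library totals), and its As2S2 libraries, at 4.29 to 4.43 CPM, lay within the control range of 3.31 to 6.36 CPM.

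The IFIT proteins bind viral RNA that lacks the marks of host messenger RNA. All 4 measured IFIT genes fell with As2S2 and rose with PMA. IFIT1 moved furthest with As2S2: 5.54, 3.88 and 5.25 CPM in control became 2.09, 1.66 and 2.09 CPM, and 10.2, 9.36 and 10.5 CPM with PMA. These were log2 fold changes of -1.33 ± 0.18 (adjusted p = 3.44e-05) and 1.03 ± 0.16 (adjusted p = 2.52e-05). IFIT5 changed by similar amounts, from 2.73, 2.48 and 2.58 CPM to 1.46, 1.11 and 0.837 CPM with As2S2 and to 4.81, 5.08 and 5.7 CPM with PMA. IFIT1 and IFIT5 are adjacent genes on chromosome 10.

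IFIT2 and IFIT3, also adjacent, gave nearly the same values as each other. IFIT2 stood at 10, 9.31 and 10 CPM in control, 7.51, 6.65 and 5.54 CPM with As2S2 and 19.3, 15.7 and 16.1 CPM with PMA. IFIT3 stood at 11.5, 8.07 and 10.8 CPM in control, 7.98, 6.55 and 5.8 CPM with As2S2 and 19.7, 15.3 and 15.1 CPM with PMA. Both had an As2S2 log2 fold change of -0.58, with adjusted p = 0.0033 for IFIT2 and 0.0102 for IFIT3, and PMA values of 0.80 and 0.71 (adjusted p = 4.8e-05 and 0.000747). The As2S2 value of IFIT3 became -0.48 without control replicate 1 (adjusted p = 0.055) and without As2S2 replicate 3 (adjusted p = 0.0536). In the deposited TPM the mean of IFIT3 was 5.05 in control and 4.47 with PMA, the reverse of the order in CPM.

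OAS1, OAS2 and OAS3 make 2′-5′ oligoadenylates, which activate the ribonuclease RNase L, and OASL is a relative without this activity. All 4 fell with As2S2 and rose with PMA. OAS1 was even within each group, at 13.8, 14.6 and 12.9 CPM in control, 6.21, 6.24 and 5.07 CPM with As2S2 and 29.7, 29.9 and 28.4 CPM with PMA. The OAS1 log2 fold changes were -1.23 ± 0.12 (adjusted p = 7.41e-07) and 1.09 ± 0.10 (adjusted p = 1.47e-07). OAS3, its neighbour on chromosome 12, stood at 29.3, 28.1 and 29.4 CPM, at 13.7, 17.1 and 14.3 CPM and at 48.5, 48.5 and 46.7 CPM in the same order. These are log2 changes of -0.94 ± 0.10 and 0.73 ± 0.09.

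OAS2, the other neighbour of OAS3, had the largest fold changes and the fewest counts of the OAS family. It stood at 1.94, 1.4 and 2.14 CPM in control, 0.73, 0.352 and 0.209 CPM with As2S2 and 6.29, 5.03 and 4.36 CPM with PMA. The 3 libraries of a group summed to 117, 25 and 270 counts. On the log2 scale OAS2 changed by -2.08 ± 0.36 with As2S2 (adjusted p = 0.000272) and 1.5 ± 0.26 with PMA (adjusted p = 9e-05). OASL stood at 7.95, 8.22 and 6.85 CPM in control, 2.61, 2.37 and 3.35 CPM with As2S2 and 13.0, 13.9 and 12.5 CPM with PMA, changes of -1.47 ± 0.16 and 0.77 ± 0.13. For both genes the groups were separate.

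MX1 and MX2 are dynamin-like GTPases that act on incoming viral particles. MX2 had the largest decrease with As2S2 of all 36 genes: it stood at 3.28, 3.36 and 2.8 CPM in control, 0.261, 0.352 and 0.523 CPM with As2S2, and 7.34, 5.55 and 5.92 CPM with PMA. With As2S2 it was thus 8.18-fold lower, resting on 199 counts in control against 22, with a log2 fold change of -3.03 ± 0.28 (adjusted p = 5.01e-07). With PMA it was 1.99-fold higher (log2 0.99 ± 0.19, adjusted p = 0.000209). Its neighbour MX1 stood at 5.87, 5.69 and 6.27 CPM, at 1.83, 2.32 and 1.67 CPM and at 14.1, 12.7 and 12.6 CPM in the same order. The log2 fold changes of MX1 were -1.61 ± 0.16 and 1.14 ± 0.13, with no overlap between groups. The MX1 counts were not whole in any library, which marks reads shared between features and makes its level less certain. The counts of MX2 were whole in all 9 libraries but few with As2S2.

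The factors at cell membranes rose with PMA but mostly did not fall with As2S2. IFITM1, IFITM2 and IFITM3 are related proteins of the cell surface and endosomes that hinder viral entry, and LY6E is a lipid-anchored surface protein. BST2 (tetherin), which holds budding virus particles at the cell surface, was the only one of these 5 to fall with As2S2. It stood at 80.9, 88.0 and 78.5 CPM in control, 59.6, 63.8 and 63.4 CPM with As2S2 and 116, 109 and 102 CPM with PMA. BST2 changed by log2 values of -0.40 ± 0.08 (adjusted p = 0.000541) and 0.40 ± 0.08 (adjusted p = 0.000218), with separate groups. The PMA call did not hold with library totals (0.14, adjusted p = 0.074), and in TPM the mean of BST2 was 90.8 in control and 86.1 with PMA.

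IFITM2 rose with both agents. It stood at 181, 225 and 184 CPM in control, 251, 272 and 299 CPM with As2S2 and 410, 400 and 389 CPM with PMA. The log2 fold change was 0.48 ± 0.09 with As2S2 (adjusted p = 0.00037) and 1.03 ± 0.09 with PMA (adjusted p = 3.88e-08). IFITM1, its neighbour, stood at 265, 290 and 258 CPM in control and at 230, 257 and 280 CPM with As2S2, ranges that overlap (log2 -0.08 ± 0.08, adjusted p = 0.422). PMA brought IFITM1 to 398, 398 and 367 CPM, a change of 0.52 ± 0.08 (adjusted p = 2.44e-05). In TPM, however, its means were 696 in control and 708 with PMA, a log2 ratio of 0.02.

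IFITM3 was far lower than the other IFITM genes in control, at 31.9 ± 4.28 TPM (SD, n = 3), and had the largest PMA increase among them. It stood at 9.61, 11.3 and 9.25 CPM in control, 10.5, 12.9 and 11.4 CPM with As2S2 and 39.5, 37.6 and 36.9 CPM with PMA. The As2S2 libraries overlapped the control libraries (0.21 ± 0.12, adjusted p = 0.153), and the PMA libraries were 3.79-fold higher (log2 1.92 ± 0.11, adjusted p = 2.89e-10). Without control replicate 2 the As2S2 value of IFITM3 was 0.30 (adjusted p = 0.0439). In TPM, however, the mean of IFITM3 was 31.9 in control and 27.9 with As2S2, the reverse of the order in CPM. The counts of all 3 IFITM genes were fractional in all 9 libraries, so the split of reads among these related genes is uncertain. LY6E stood at 210, 300 and 209 CPM in control, 206, 260 and 263 CPM with As2S2 and 488, 475 and 508 CPM with PMA. It rose with PMA by 1.03 ± 0.12 (adjusted p = 1.6e-06). Its As2S2 value of 0.02 ± 0.12 rested on the high control replicate 2, without which it was 0.22 (adjusted p = 0.0465). In TPM the mean of LY6E was 224 in control and 211 with As2S2. This is a log2 ratio of -0.09, where the median over tested genes was -0.11.

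RSAD2 (viperin) is a radical SAM enzyme that makes a chain-terminating nucleotide, and CMPK2, its neighbour on chromosome 2, is a nucleotide kinase of mitochondria. RSAD2 had the largest PMA increase of the 36 genes. It stood at 17.3, 16.6 and 18.5 CPM in control, 11.5, 10.8 and 11.3 CPM with As2S2 and 87.7, 88.6 and 82.1 CPM with PMA. It was 4.93-fold higher with PMA (log2 2.30 ± 0.09, adjusted p = 1.61e-12) and 1.56-fold lower with As2S2 (log2 -0.64 ± 0.09, adjusted p = 5.11e-05). CMPK2 had a larger As2S2 value and a smaller PMA value, from 11.2, 9.98 and 13.7 CPM in control to 6.42, 5.99 and 6.8 CPM and to 16.8, 16.5 and 16.7 CPM. The log2 fold changes of CMPK2 were -0.86 ± 0.13 and 0.52 ± 0.12 (adjusted p = 8.31e-05 and 0.0015), and with library totals the PMA value was 0.26 (adjusted p = 0.0997). ISG20, an exonuclease, rose 2.78-fold with PMA (log2 1.48 ± 0.13, adjusted p = 7.43e-08), while its As2S2 libraries at 5.43 to 6.22 CPM lay within the control range of 4.85 to 6.72 CPM.

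IFI6 and IFI27 encode small hydrophobic proteins of internal membranes. IFI6 stood at 53.2, 73.0 and 52.2 CPM in control, 20.6, 25.8 and 25.1 CPM with As2S2 and 250, 239 and 256 CPM with PMA. It was 2.49-fold lower with As2S2 (log2 -1.32 ± 0.12, adjusted p = 4.56e-07) and 4.18-fold higher with PMA (log2 2.06 ± 0.11, adjusted p = 2e-10). IFI27 had a smaller decrease, from 51.3, 56.0 and 49.6 CPM to 34.1, 40.9 and 42.4 CPM with As2S2, and stood at 184, 171 and 160 CPM with PMA. These were changes of -0.42 ± 0.09 (adjusted p = 0.00182) and 1.72 ± 0.09 (adjusted p = 1.04e-10). The groups of both genes were separate in both comparisons.

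IFI44 and IFI44L are adjacent paralogues on chromosome 1. IFI44 stood at 14.0, 10 and 14.0 CPM in control, 9.39, 8.06 and 7.79 CPM with As2S2 and 36.0, 37.3 and 33.4 CPM with PMA, changes of -0.59 ± 0.13 (adjusted p = 0.00238) and 1.49 ± 0.12 (adjusted p = 3.26e-08). IFI44L stood at 3.37, 3.15 and 4.23 CPM in control, 1.41, 0.705 and 0.889 CPM with As2S2 and 4.19, 3.76 and 4.14 CPM with PMA. It was 3.58-fold lower with As2S2 (log2 -1.84 ± 0.25, adjusted p = 2.5e-05), and its PMA libraries overlapped the control libraries (0.17 ± 0.21, adjusted p = 0.507). The 2 genes thus gave unlike values with PMA, a contrast between genes that was not tested. IFI35, which binds the partner protein NMI, rose with PMA by 1.11 ± 0.15 (adjusted p = 7.39e-06), and its As2S2 libraries spread from 8.14 to 14.1 CPM around the control libraries at 12.4 to 13.7 CPM. Without As2S2 replicate 2 the As2S2 value of IFI35 was -0.47 (adjusted p = 0.0197).

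**Figure D3:**
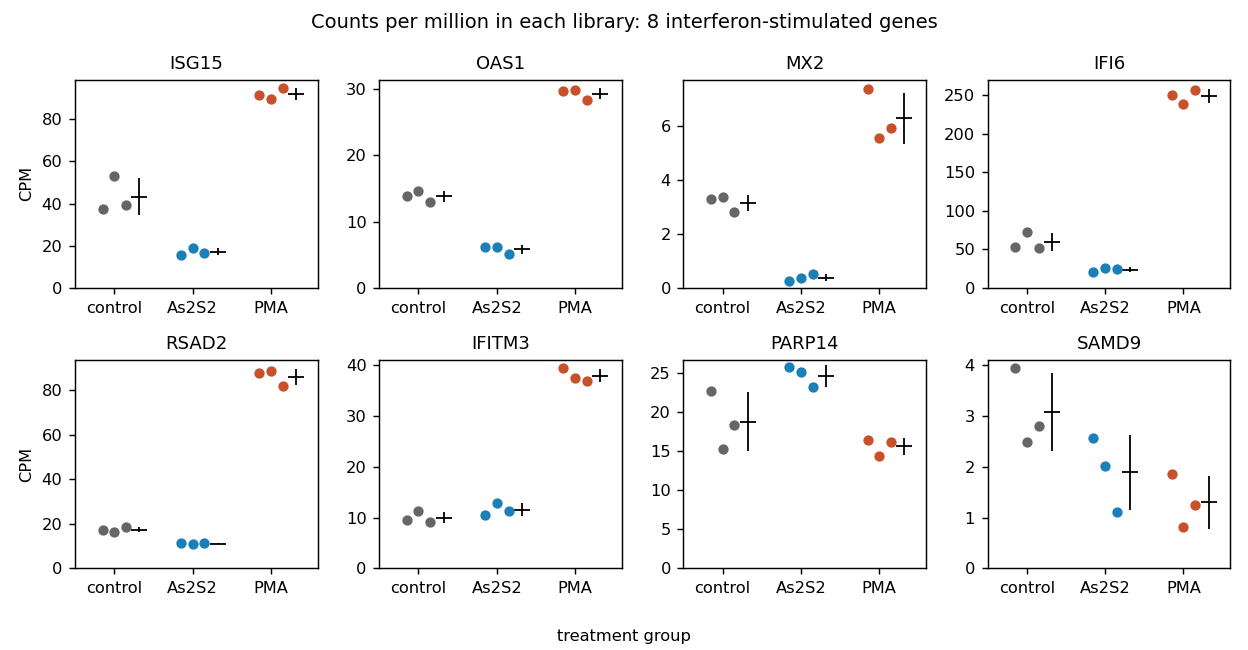
CPM (vertical axis from 0) of 8 interferon-stimulated genes in control, As2S2 and PMA libraries; points are replicates 1 to 3, and the bar beside them is the mean ± SD. ISG15, OAS1, MX2, IFI6 and RSAD2 are lowest with As2S2 and highest with PMA, IFITM3 is highest with PMA, PARP14 is highest with As2S2, and SAMD9 is lowest with PMA.

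PARP9 and DTX3L form a complex that joins ADP-ribosylation to ubiquitylation, and they share a promoter. PARP9 stood at 16.1, 12.7 and 16.0 CPM in control, 8.61, 6.95 and 7.53 CPM with As2S2 and 21.2, 23.1 and 20.6 CPM with PMA. Its log2 fold changes were -0.96 ± 0.13 (adjusted p = 2.17e-05) and 0.53 ± 0.12 (adjusted p = 0.00095), and with library totals the PMA value was 0.27 (adjusted p = 0.0796). DTX3L fell with As2S2 by 0.51 ± 0.12 on the log2 scale (adjusted p = 0.0029). Its PMA libraries, at 27.0 to 27.9 CPM, overlapped the control libraries at 20.8 to 28.4 CPM. The PMA value of DTX3L was 0.38 without control replicate 1 (adjusted p = 0.00544) and -0.04 with library totals (adjusted p = 0.784).

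PARP14, SAMD9 and SAMD9L departed from the general pattern and were singled out after their values were seen. PARP14, a mono-ADP-ribosyltransferase, stood at 22.6, 15.2 and 18.3 CPM in control, 25.7, 25.1 and 23.1 CPM with As2S2 and 16.4, 14.4 and 16.1 CPM with PMA. The As2S2 libraries were above all others (0.39 ± 0.13, adjusted p = 0.0194), and the PMA libraries overlapped the control libraries (-0.26 ± 0.13, adjusted p = 0.0899). Both calls depended on control replicate 2: without it the As2S2 value was 0.27 (adjusted p = 0.058) and the PMA value -0.40 (adjusted p = 0.00514). The PMA value of PARP14 also passed the threshold with library totals (-0.53, adjusted p = 0.00436) and with no filter (-0.31, adjusted p = 0.0358). The As2S2 call of PARP14 was also lost when control replicate 3 (adjusted p = 0.0612) or As2S2 replicate 2 (adjusted p = 0.0563) was left out, in a fit of only these groups (adjusted p = 0.0545) and with library totals (adjusted p = 0.0895).

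SAMD9 and SAMD9L are adjacent genes on chromosome 7 that restrict protein synthesis in infected cells. SAMD9 was the only one of the 36 genes called lower with PMA. It stood at 3.93, 2.48 and 2.8 CPM in control, 2.56, 2.01 and 1.1 CPM with As2S2 and 1.85, 0.809 and 1.24 CPM with PMA. The PMA libraries were below all control libraries (-1.25 ± 0.33, adjusted p = 0.00331), and the As2S2 libraries overlapped them (-0.70 ± 0.30, adjusted p = 0.0783). With As2S2 SAMD9 passed the threshold once As2S2 replicate 1 was left out (-0.97, adjusted p = 0.0374), or control replicate 2 (-0.83, adjusted p = 0.0411), or both of these (-1.1, adjusted p = 0.00997). It also did so with no filter (-0.71, adjusted p = 0.0202) and with the replicate block (-0.71, adjusted p = 0.0328). The control, As2S2 and PMA libraries held 86, 90 and 39 counts of SAMD9L, and its PMA value was -0.83 ± 0.40 (adjusted p = 0.0869). The PMA value of SAMD9L was -1.16 without control replicate 2 (adjusted p = 0.00863), -1.1 with library totals (adjusted p = 0.0299) and -0.87 with no filter (adjusted p = 0.0432).

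EPSTI1, a gene first described through contact of epithelial and stromal cells, stood at 7.86, 8.17 and 6.67 CPM in control, 5.37, 4.53 and 4.5 CPM with As2S2 and 14.7, 16.4 and 16.4 CPM with PMA. Its log2 fold changes were -0.65 ± 0.14 (adjusted p = 0.00131) and 1.07 ± 0.12 (adjusted p = 1.58e-06). SP110, a nuclear body protein, moved less, from 20.5, 20.7 and 18.5 CPM in control to 17.1, 15.5 and 14.4 CPM with As2S2 and to 27.9, 24.5 and 25.8 CPM with PMA. The groups were separate, but the As2S2 value of -0.34 ± 0.10 (adjusted p = 0.0148) was not past the threshold without control replicate 1 (-0.31, adjusted p = 0.0519), As2S2 replicate 2 (-0.33, adjusted p = 0.0519) or As2S2 replicate 3 (-0.28, adjusted p = 0.0737). Nor was its PMA value of 0.39 ± 0.10 with library totals (0.13, adjusted p = 0.268), and its counts were whole in 3 of 9 libraries. In TPM the mean of SP110 was 8.44 in control and 7.98 with PMA.

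TRIM22, a ubiquitin ligase, rose with PMA by 0.93 ± 0.14 (adjusted p = 2.84e-05), and its As2S2 libraries overlapped the control libraries. XAF1, a proapoptotic protein, was among the least abundant of the genes per length, at 0.323 TPM in control. It stood at 1.8, 0.672 and 1.11 CPM in control, 0.157, 0.453 and 0.523 CPM with As2S2 and 0.925, 0.404 and 0.43 CPM with PMA. It was 3.15-fold lower with As2S2 (log2 -1.65 ± 0.49, adjusted p = 0.0126), on 77 counts in control against 22. That call did not hold when control replicate 1 was left out (adjusted p = 0.0888), nor without As2S2 replicate 1 (adjusted p = 0.0611). In TPM the difference was smaller, with means of 0.323 ± 0.153 in control and 0.21 ± 0.236 with As2S2 (SD, n = 3), a log2 ratio of -0.62. XAF1 counts were whole in 3 of 9 libraries. The PMA libraries of XAF1 overlapped the control libraries (-1.05 ± 0.46, adjusted p = 0.0596), and the PMA value was -1.33 without control replicate 2 (adjusted p = 0.0178), -1.51 without PMA replicate 1 (adjusted p = 0.028), -1.31 with library totals (adjusted p = 0.0232) and -1.09 with no filter (adjusted p = 0.0267).

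In all, 22 of the 36 genes (61.1%) were called lower with As2S2 and higher with PMA, and 0 were called the other way. Of all tested genes, 3.42% were lower with As2S2 and higher with PMA, and 3.89% were the reverse, 7.31% together. All 22 also had the 3 As2S2 libraries below and the 3 PMA libraries above the 3 control libraries, an order that 4.67% of tested genes showed. They comprise the 4 IFIT, the 4 OAS and both MX genes, ISG15, USP18, HERC6, BST2, RSAD2, CMPK2, IFI6, IFI27, IFI44, PARP9, SP110 and EPSTI1. Without both control replicate 2 and As2S2 replicate 1 the same 22 genes were called, against 5.19% of the genes tested then. With library totals 17 of them were called in opposite directions, against 2.58% of tested genes, and HERC6, BST2, CMPK2, PARP9 and SP110 were not. Over 20 settings at the threshold of 0.05, that of the report included, 16 genes were called in opposite directions in every one. Of the other 6, BST2, CMPK2 and PARP9 were so called in 19, IFIT3 in 18, SP110 in 16 and HERC6 in 12. PARP14 was called the other way, higher with As2S2 and lower with PMA, in 1 of the 20 settings, that with no filter. The authors' deposited table gave 24 of the 36 genes lower and 2 higher with As2S2, against 15.3% and 14.9% of the genes tested here, at its own adjusted p under 0.05. With PMA the authors' deposited table gave 29 higher and 1 lower, against 26.3% and 29%.

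**Figure D4:**
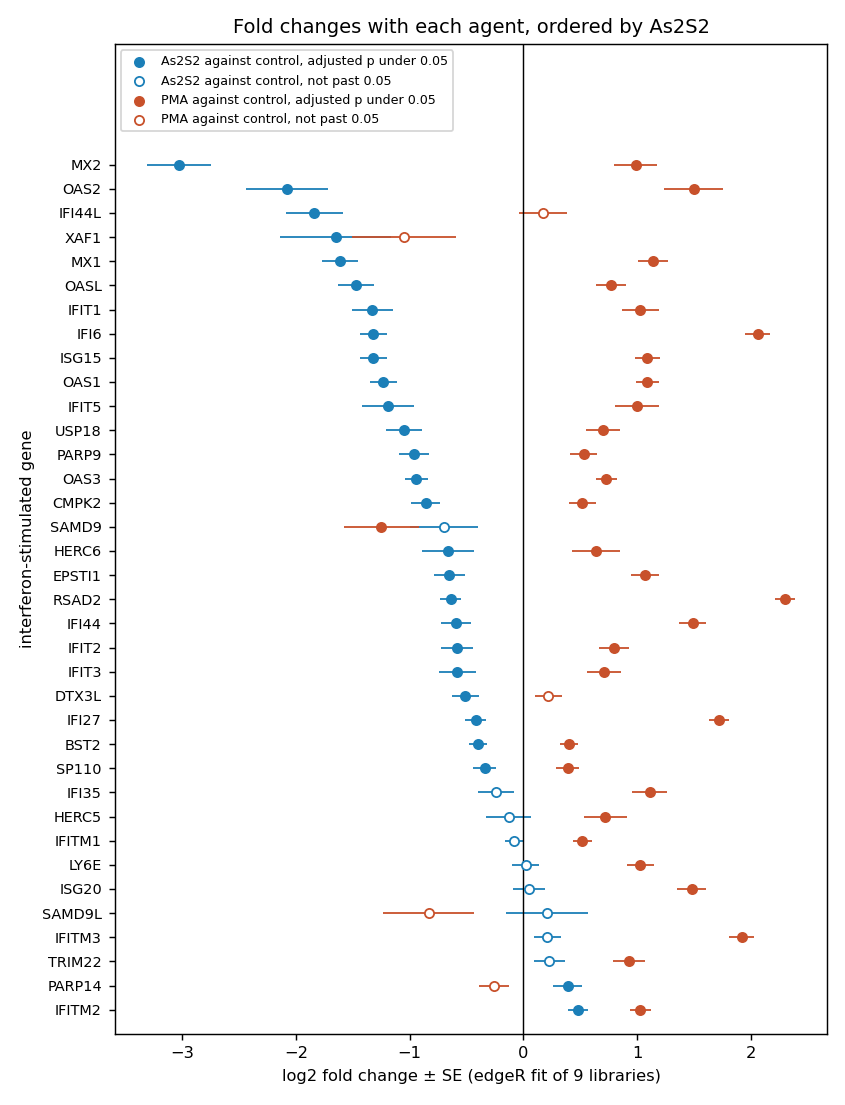
Log2 fold change ± SE (horizontal axis) of the 36 genes (vertical, ordered by the As2S2 value) with As2S2 (blue) and with PMA (orange), each against control; filled points passed an adjusted p of 0.05 and open points did not. For 22 genes a filled blue point lies left of 0 and a filled orange point right of it; SAMD9 (filled), SAMD9L, XAF1 and PARP14 (open) have PMA values left of 0.

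Set directly against PMA, As2S2 gave lower levels in 32 of the 36 genes and higher levels in PARP14 and SAMD9L, whereas 30.6% of all tested genes were lower and 30.9% were higher (61.4% in either direction). By overlap alone, all As2S2 libraries were below all PMA libraries for 32 genes and above for 2, against 33.6% of all tested genes each way. Without control replicate 2 and As2S2 replicate 1 the counts were again 32 and 2, against 33.2% each way. The median log2 difference of the 36 genes was -1.46, against 0 over all tested genes. The largest differences were those of MX2, 16.3-fold lower with As2S2 (log2 -4.02 ± 0.26), OAS2, 12-fold lower (-3.58 ± 0.33), and IFI6, 10.4-fold lower (-3.38 ± 0.12). RSAD2 (-2.94 ± 0.09), MX1 (-2.75 ± 0.16) and ISG15 (-2.42 ± 0.12) followed. The IFITM genes had smaller differences, of -0.54 ± 0.09 for IFITM2, -0.60 ± 0.08 for IFITM1 and -1.71 ± 0.11 for IFITM3. PARP14 was 1.58-fold higher with As2S2 than with PMA (log2 0.66 ± 0.13, adjusted p = 0.000324). The SAMD9L value of 1.03 ± 0.40 (adjusted p = 0.0348) was not past the threshold without As2S2 replicate 1 (adjusted p = 0.102), As2S2 replicate 2 (adjusted p = 0.0602), PMA replicate 2 (adjusted p = 0.0521) or PMA replicate 3 (adjusted p = 0.149). Without As2S2 replicate 3 SAMD9 was also higher with As2S2 than with PMA (0.83, adjusted p = 0.0456). For SAMD9 and XAF1 the groups overlapped.

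Upstream of these genes, little interferon RNA was counted. Of 13 listed interferon genes, 6 were at 0 counts in all libraries and only IFNB1 had enough counts to be tested. IFNB1 encodes interferon beta and stood at 0.601, 0.362 and 0.667 CPM in control, 0.313, 0.352 and 0.523 CPM with As2S2 and 1.91, 1.91 and 1.45 CPM with PMA. The PMA libraries were above all control libraries (log2 1.66 ± 0.34, adjusted p = 0.000442), on 91 counts against 35, and the As2S2 libraries overlapped them (-0.46 ± 0.41, adjusted p = 0.393).

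Of 9 genes for interferon receptor chains and JAK kinases, 8 were tested. With As2S2 3 rose and 2 fell, where 20.3% of all tested genes rose and 19.6% fell. With PMA 5 rose and 1 fell, where 30.8% rose and 31.1% fell. With library totals 2 rose and 3 fell with PMA, against 20.3% and 44.4% of all tested genes, and with no filter 3 rose and 2 fell. The count that fell with As2S2 was 1 without control replicate 1 or 3 or As2S2 replicate 2 or 3, and the count that fell with PMA was 0 without control replicate 1 or PMA replicate 2 and 2 without control replicate 2 or As2S2 replicate 1. IFNAR2, a chain of the type I receptor, rose with PMA by 0.78 ± 0.08 (adjusted p = 4.88e-07), and IL10RB, a chain of the type III receptor, by 0.70 ± 0.08 (adjusted p = 1.63e-06). TYK2 rose with As2S2 by 0.47 ± 0.08 (adjusted p = 0.000279). IFNGR2, a chain of the interferon gamma receptor, fell with As2S2 by 0.33 ± 0.08 on the log2 scale (adjusted p = 0.00345).

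The listed STAT and IRF genes did not move as 1 unit. Of 9 tested STAT and IRF genes, 1 rose and 2 fell with As2S2, and 4 rose and 0 fell with PMA (3 and 2 with library totals). The As2S2 counts turned to 3 higher and 1 lower without As2S2 replicate 1 and to 2 and 1 without control replicate 2, and 1 fell without As2S2 replicate 2 or any 1 PMA replicate. The shares of all tested genes that rose and fell are those given above, 20.3% and 19.6% with As2S2 and 30.8% and 31.1% with PMA. STAT2 rose with both, from 16.0, 15.5 and 15.1 CPM to 23.4, 26.4 and 26.9 CPM with As2S2 and 24.4, 25.5 and 23.3 CPM with PMA. IRF1, which is itself induced by interferons, rose with PMA by 1.12 ± 0.09 (adjusted p = 1.56e-08). IRF7, an amplifier of the response, had an As2S2 value of -0.49 ± 0.19 (adjusted p = 0.0471) that was -0.28 without control replicate 2 (adjusted p = 0.194). IRF9, the DNA-binding partner, rose with PMA by 0.45 ± 0.09 (adjusted p = 0.000364), though not with library totals (0.19, adjusted p = 0.0589), and its value with As2S2 was -0.02 ± 0.09.

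Of 10 tested sensors and adaptors of nucleic acid recognition, 5 fell and 0 rose with As2S2, where 19.6% of all tested genes fell and 20.3% rose. With PMA 4 fell and 2 rose, near the 31.1% and 30.8% of all tested genes, and with library totals 6 fell and 1 rose, where 44.4% and 20.3% did. Without As2S2 replicate 1, 1 rose with As2S2, and 1 rose with PMA without As2S2 replicate 2 or 3 or any 1 PMA replicate. STING1, the adaptor of the DNA sensor CGAS, stood at 97.3, 121 and 103 CPM in control and at 54.2, 61.3 and 64.4 CPM with As2S2 (-0.84 ± 0.09, adjusted p = 2.4e-06), and overlapped control with PMA (-0.11 ± 0.09, adjusted p = 0.302, but -0.36, adjusted p = 0.000746, with library totals). IFI16, a nuclear DNA sensor, fell with As2S2 by 1.57 ± 0.13 on the log2 scale (adjusted p = 1.43e-07) and with PMA by 0.50 ± 0.12 (adjusted p = 0.00189). CGAS fell with PMA by 1.28 ± 0.08 (adjusted p = 1.35e-09).

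Of 6 feedback inhibitors, 4 rose and 1 fell with As2S2, and 2 rose and 1 fell with PMA (1 and 3 with library totals). Of all tested genes 20.3% rose and 19.6% fell with As2S2, and 30.8% rose and 31.1% fell with PMA. None fell with As2S2 without control replicate 1, and 2 fell with PMA without control replicate 2 or As2S2 replicate 1. SOCS1, which blocks JAK kinases, moved against the 22 genes: it stood at 12.5, 20.6 and 14.2 CPM in control, 22.2, 30.1 and 29.4 CPM with As2S2 and 8.39, 7.57 and 9.31 CPM with PMA. Its log2 fold changes were 0.79 ± 0.16 (adjusted p = 0.00101) and -0.90 ± 0.18 (adjusted p = 0.000327). SOCS3 rose with both, by 1.41 ± 0.09 with As2S2 (adjusted p = 5.92e-09) and 0.50 ± 0.09 with PMA (adjusted p = 0.000112). PTPN1, a phosphatase of JAK kinases, rose by 0.80 ± 0.07 with As2S2 (adjusted p = 2.19e-07) and 0.25 ± 0.07 with PMA (adjusted p = 0.00445, but -0.01 and adjusted p = 0.89 with library totals).

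**Figure D5:**
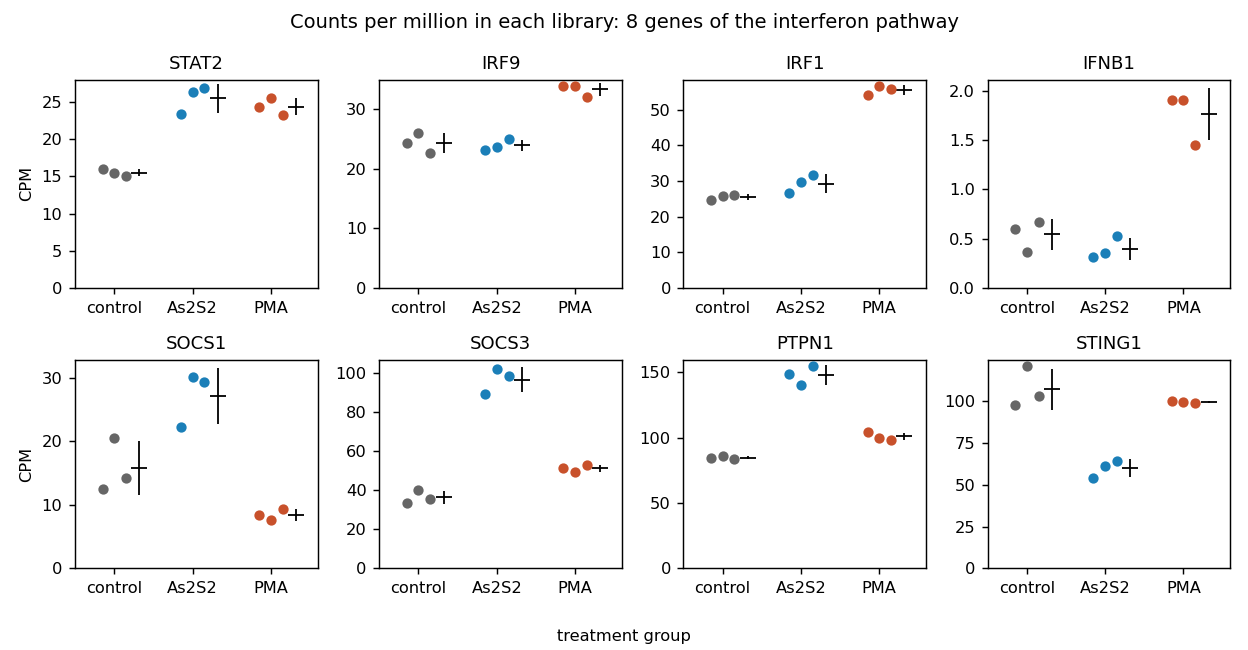
CPM (vertical axis from 0) of 8 genes of the interferon pathway in control, As2S2 and PMA libraries; points are replicates 1 to 3, and the bar beside them is the mean ± SD. STAT2 is raised with both agents, SOCS1 is highest with As2S2 and lowest with PMA, and STING1 is lower in the As2S2 libraries.

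Further targets of interferons were called in both directions. Of 29 further interferon-stimulated genes tested, 13 fell and 3 rose with As2S2, and 16 rose and 4 fell with PMA (11 and 8 with library totals), with median log2 fold changes of -0.10 and 0.31. The shares of all tested genes were 19.6% lower and 20.3% higher with As2S2, and 30.8% higher and 31.1% lower with PMA (20.3% and 44.4% with library totals). APOBEC3G, a cytidine deaminase, rose with PMA by 1.85 ± 0.11 (adjusted p = 5.36e-10), and UBE2L6, the conjugating enzyme for ISG15, by 0.82 ± 0.08 (adjusted p = 1.02e-07). PLSCR1, 1 of the 3 that rose with As2S2, did so by 0.47 ± 0.08 (adjusted p = 0.000145). The As2S2 counts of this list were 10 lower and 4 higher without control replicate 2. They were 10 lower and 2 higher without As2S2 replicate 1 or As2S2 replicate 2. Of 17 tested genes of interferon gamma and antigen processing, 5 rose and 5 fell with As2S2, and 12 rose and 3 fell with PMA (12 and 4 with library totals). Without control replicate 3 the As2S2 counts were 4 higher and 2 lower. GBP2, a guanylate-binding protein, rose with PMA by 2.83 ± 0.12 (adjusted p = 5.02e-12) and with As2S2 by 0.71 ± 0.12 (adjusted p = 0.000186). Its relative GBP5 went the other way from most of the 36 genes, with 1.27 ± 0.13 with As2S2 (adjusted p = 2.41e-06) and -0.68 ± 0.15 with PMA (adjusted p = 0.000669). B2M, the light chain of class I antigen-presenting molecules, rose with PMA by 1.90 ± 0.07, and WARS1, the cytosolic tryptophanyl-tRNA synthetase, fell by 2.77 ± 0.06 on the log2 scale.

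Markers of other blood cells were mostly low in these libraries. Of 6 markers of plasmacytoid dendritic cells, CLEC4C, LILRA4 and IRF8 were at 0 in all 9 libraries. Their summed level was 18.9 to 26 CPM in control, 18.9 to 23.2 CPM with As2S2 and 191 to 202 CPM with PMA. The PMA sum was almost all GZMB (granzyme B), at 178 to 188 CPM against at most 0.362 CPM elsewhere. The 8 monocyte markers summed to 48.9 to 51.1, 45.8 to 51.2 and 57.2 to 61.9 CPM, with CD14 at 0.617 to 1.5 CPM throughout. Single genes of this list did move. Of 5 tested, 3 rose and 1 fell with PMA, where 30.8% and 31.1% of all tested genes did. With As2S2 1 rose and 1 fell, where 20.3% and 19.6% did, and none rose without control replicate 1 or 3 or As2S2 replicate 3. The 6 lymphoid markers summed to at most 2.93 CPM and the 5 granulocyte markers to at most 0.362 CPM. The megakaryoblast markers themselves moved with PMA: 8 of 11 tested rose and 1 fell, where 30.8% and 31.1% of all tested genes did. With library totals 7 rose and 2 fell with PMA, where 20.3% and 44.4% did. With As2S2, 4 of the 11 rose and 2 fell, where 20.3% and 19.6% of all tested genes did. The As2S2 counts were 3 and 2 with library totals, and likewise without control replicate 3 or As2S2 replicate 1. GATA1 was not called in the main fit. With library totals it fell with PMA (-0.27, adjusted p = 0.0242). Without control replicate 2 and As2S2 replicate 1 it rose with As2S2 (0.18, adjusted p = 0.0115) and PMA (0.13, adjusted p = 0.0412). The sum of the 12 markers was 1315 to 1472 CPM in control, 1355 to 1524 CPM with As2S2 and 1643 to 1665 CPM with PMA. Whether these changes take part in those of the interferon-stimulated genes was not tested.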

How the data were processed

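RNA of 9 MEG-01 libraries was measured by poly(A)-selected sequencing, and groups and replicate numbers came from the sample titles and treatment labels. Per the submitters' processing notes, the tools were fastp 0.22.0 and DESeq2. These notes name zebrafish builds, and 1 control sample carries the organism label "root", whereas the deposited tables hold human Ensembl identifiers. For the aligner, counting tool, annotation and strand setting, the entry is "not given in the sources used here"; reads of overlapping antisense genes cannot be told apart. The authors deposited estimated counts (expected counts) and TPM per gene and library, and a log2 fold change and adjusted p-value per gene from their own comparison, per the file headers. The control columns of both tables differed in 0 values. Estimated counts were rounded to whole numbers. Genes were kept by filterByExpr and scaled by TMM, and CPM are on that scale. All 9 libraries entered 1 fit by group in edgeR 4.0.16 (R 4.3.3), with the quasi-likelihood F-test and Benjamini-Hochberg adjustment over 14592 genes. The fit was first tested on simulated counts. Of the 36 genes, 24 had whole counts in all libraries; MX1 and the IFITM genes had none, IFI6 had 2, and SP110 and XAF1 had 3.

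Alternatives were DESeq2 1.42.0, limma-voom (limma 3.58.1), upper-quartile and RLE scaling, no filter, a stricter filter, only the groups compared, the replicate block, a threshold of 0.01 and each library left out. Library totals, and leaving out control replicate 2 with As2S2 replicate 1, were added after the data were seen. The genes, gene lists and tests were chosen with earlier results of these data known. Values in every library are given for genes called in opposite directions, for the 6 with the largest change among those called in each comparison and for the 3 highest in control, and up to 3 genes with the smallest adjusted p are named of each other list of the pathway. Other genes with values were singled out after these were seen. RefSeq promoter sequences (GRCh38.p14) were matched by symbol. The values of 1 gene of the pathway are not reported here.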

Additional observations from a re-analysis of the deposited data

How the results depend on the processing

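Of 2048 values of single genes under an alternative, 1978 kept their direction and their side of the threshold, 31 lost and 25 gained a call, and 14 changed direction, all of them for values not past the threshold. With 1 library left out, or both control replicate 2 and As2S2 replicate 1, the As2S2 values of these genes ran from -0.34 to 0.14 for HERC5, -0.15 to 0.04 for IFITM1, -0.06 to 0.32 for LY6E, -0.06 to 0.23 for ISG20 and -0.25 to 0.46 for SAMD9L. With library totals they were -0.05 for LY6E and -0.04 for ISG20, and with upper-quartile scaling 0 for LY6E. The PMA values of IFI44L (-0.10) and DTX3L (-0.04) changed direction with library totals. The count of genes lower with PMA, 1, became 4 without a filter, with library totals and without both libraries, and 1 to 4 with 1 library left out. The count higher with As2S2, 2, became 1 in a fit of only the groups compared, at a threshold of 0.01 and with library totals, and 1 to 3 with 1 library left out. The count higher with As2S2 than with PMA, 2, became 1 at 0.01 and 1 to 3 with 1 library left out. The cause was not tested. The other counts over the 36 genes stayed within 1.5 times. Genes called in opposite directions, in either order, ran from 17, with library totals, to 23. The highest count, that with no filter, includes PARP14, which was then called higher with As2S2 and lower with PMA. The deviations of same-numbered libraries from their group means had correlations of -0.073 to 0.149, against -0.215 to 0.149 for other pairs. With 3 libraries in each group, these values cannot show whether replicate numbers mark a shared culture or day. With the replicate block 22 genes were called in opposite directions, 26 lower with As2S2 and 30 higher with PMA. Low counts limit MX2, OAS2, IFI44L, XAF1, SAMD9 and SAMD9L most.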
